A study of Mus musculus with 15 samples.

Results

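Transcript levels of 10 genes that make cysteine, make and recycle glutathione, or are classical targets of the transcription factor NRF2 are described here in brown preadipocytes treated with fibroblast growth factors. The genes were Cth and Cbs (cysteine synthesis), Gclc, Gclm and Gss (glutathione synthesis), Gsr (glutathione recycling), and Nqo1, Hmox1, Txnrd1 and Srxn1 (redox and heme enzymes). They were chosen by symbol from 29072 gene symbols in the table, and where a symbol had several transcript rows, the row with the highest mean over all 15 libraries was used. Of the 10 genes, 9 had at least 0.5 RPKM (reads per kilobase of transcript, scaled to the depth of the library) in at least 3 libraries and entered the test with 13869 genes in all. Cbs did not reach that level.

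The cells were precursors from the stromal-vascular fraction of interscapular brown fat of 129SvEv mice, immortalised with SV40 large T antigen, which every group therefore carries. There were 5 groups of 3 libraries: control, 5.56 nM FGF1, 5.56 nM FGF8b, 5.56 nM FGF9, and 5.56 nM FGF8b with 2 µM BAY-876, which inhibits the glucose transporter GLUT1. The FGF treatments lasted 48 h. The series text gives 1 µg/ml heparin with the FGFs, while only the FGF9 sample labels mention it. The labels do not state the time or the heparin of the control, and no group had heparin alone or BAY-876 alone. Nothing in the labels tells if replicate libraries are separate cultures, and a p-value here reflects no more than the spread of these libraries, which may be technical.

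Cysteine is the scarce building block of glutathione, the main thiol antioxidant of the cell. Cells import it as cystine through the transporter xCT, encoded by Slc7a11, or make it from homocysteine by transsulfuration, in which CBS forms cystathionine and CTH (cystathionine gamma-lyase) splits it. Glutamate-cysteine ligase, a catalytic subunit (Gclc) with a modifier subunit (Gclm), then makes the dipeptide that glutathione synthetase (Gss) completes. Glutathione reductase (Gsr) uses NADPH to return oxidised glutathione to its reduced form. NRF2, encoded by Nfe2l2, is held in the cytoplasm and marked for degradation by KEAP1, so its activity is set mostly at the protein level. On stress it pairs with small MAF proteins at antioxidant response elements, sites from which BACH1 holds it off. ATF4 is a different stress factor, which drives amino acid genes, among them Cth and Slc7a11.

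Promoter windows of 300 bases, from 250 bases before to 50 bases after a transcription start, were found in RefSeq (GRCm38.p6) for 6 of the 10 genes, with 8 windows in all because Txnrd1 had 3 start sites. Windows for Cth, Gclc, Gsr and Hmox1 were not analysed here. The core of the antioxidant response element, TGACNNNGC read on both strands, was present in 3 of these windows, 1 each of Gclm, Txnrd1 and Srxn1, and in 12.4% of 32851 RefSeq windows of the same length. The 3 windows are shown because they hold the element, with the matched bases in capitals. A rise with BAY-876 does not set their genes apart: all 9 tested genes rose, among them Gss and Nqo1, whose windows had no match. All 3 matches lie on the strand opposite to the gene, so the capitals are the reverse complement of the core. They begin 134 bases before the start in Gclm, 92 bases before it in Txnrd1, and at base 29 of the transcript in Srxn1.
Gclm, plus strand, chr3:122245307-122245606: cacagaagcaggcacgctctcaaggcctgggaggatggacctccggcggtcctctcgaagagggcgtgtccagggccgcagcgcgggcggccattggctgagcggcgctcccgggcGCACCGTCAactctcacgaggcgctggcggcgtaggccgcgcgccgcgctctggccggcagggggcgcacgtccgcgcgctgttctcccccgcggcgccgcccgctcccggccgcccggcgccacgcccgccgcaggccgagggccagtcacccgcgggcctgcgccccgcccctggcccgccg
Txnrd1, plus strand, second of the start sites, chr10:82858956-82859255: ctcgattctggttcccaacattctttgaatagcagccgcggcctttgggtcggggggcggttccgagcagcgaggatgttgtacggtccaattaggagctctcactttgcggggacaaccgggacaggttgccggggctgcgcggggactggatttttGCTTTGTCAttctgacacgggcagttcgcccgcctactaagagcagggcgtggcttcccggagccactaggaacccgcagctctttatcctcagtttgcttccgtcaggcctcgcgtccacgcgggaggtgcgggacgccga
Srxn1, plus strand, chr2:152105274-152105573: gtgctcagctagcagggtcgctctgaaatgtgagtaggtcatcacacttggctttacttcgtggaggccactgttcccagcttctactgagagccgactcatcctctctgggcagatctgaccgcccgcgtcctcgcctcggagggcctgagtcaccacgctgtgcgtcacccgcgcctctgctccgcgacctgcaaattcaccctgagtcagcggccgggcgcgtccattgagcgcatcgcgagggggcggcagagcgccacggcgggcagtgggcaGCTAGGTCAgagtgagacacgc

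The windows of Cbs, Gss and Nqo1 and the other two of Txnrd1 had no match to this core. The core of the element that ATF4 binds with a C/EBP partner, TGATGNAAN on both strands, had 0 matches in the 8 windows, against 3.95% of all windows. At so low a share 8 windows are too few to show a lack of the element, and none of them belonged to Cth. The promoter window of Slc7a11 held it 2 times, as TGATGCAAA from base -66 on the same strand and from base -48 on the opposite strand. A match is a description of the letters in these windows, and binding was not measured.

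Each library held between 27.01 and 42.64 M reads, and the 9 tested genes had between 193 and 8911 reads per library in their rows. Libraries of a group correlated across genes at 0.9913 to 0.9967, and libraries of different groups at 0.8786 to 0.9962. The summed level of 9 preadipocyte and fibroblast markers was 4000 to 4620 RPKM in the control libraries, 4030 to 4140 with FGF1, 1200 to 1420 with FGF8b, 1180 to 1260 with FGF9 and 237 to 253 with FGF8b plus BAY-876. Single markers differed from this sum. Thy1 had a mean of 37.8 RPKM in control and 62.8 with FGF8b, Ly6a was at 1020 RPKM in control and 245 with FGF1, and Pdgfrb was at 17.3 RPKM with FGF8b and 22.9 with BAY-876. The summed level of 3 brown preadipocyte markers was 8.02 to 8.55 RPKM with BAY-876 and 12 to 16.2 in all other libraries. Most of this sum was Ebf2, with a mean of 11.1 RPKM in control, 12.7 with FGF8b and 6.72 with BAY-876. The others did not follow it: Prdm16 was at 0.226 RPKM in control, 1.01 with FGF8b and 0.504 with BAY-876. Zic1 was at 1.1 RPKM in control and with BAY-876.

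Of the markers of other cell types, 1 of 5 for adipocytes, 3 of 6 for macrophages, 2 of 4 for endothelium, 1 of 4 for skeletal muscle and 0 of 3 for hepatocytes reached a mean of 0.5 RPKM in any group. The adipocyte markers summed to 4.99 to 9.27 RPKM over all libraries, the macrophage markers to 1.5 to 2.7 and the muscle markers to 3.99 to 8.45, nearly all of the first from Fabp4 and of the last from Acta1. The endothelial markers summed to 7.45 to 8.86 RPKM in control, 1.67 to 1.68 with FGF1, 0.391 to 0.545 with FGF8b, 0.327 to 0.515 with FGF9 and 0.752 to 0.921 with BAY-876, and Kdr made up most of the control value (6.18). The hepatocyte markers summed to at most 0.0788 RPKM. Lep, Emr1, Myod1, Myog and Ttr were at 0 in all 15 libraries. The part of the shifts in markers in the results below was not tested.

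**Figure D1:**
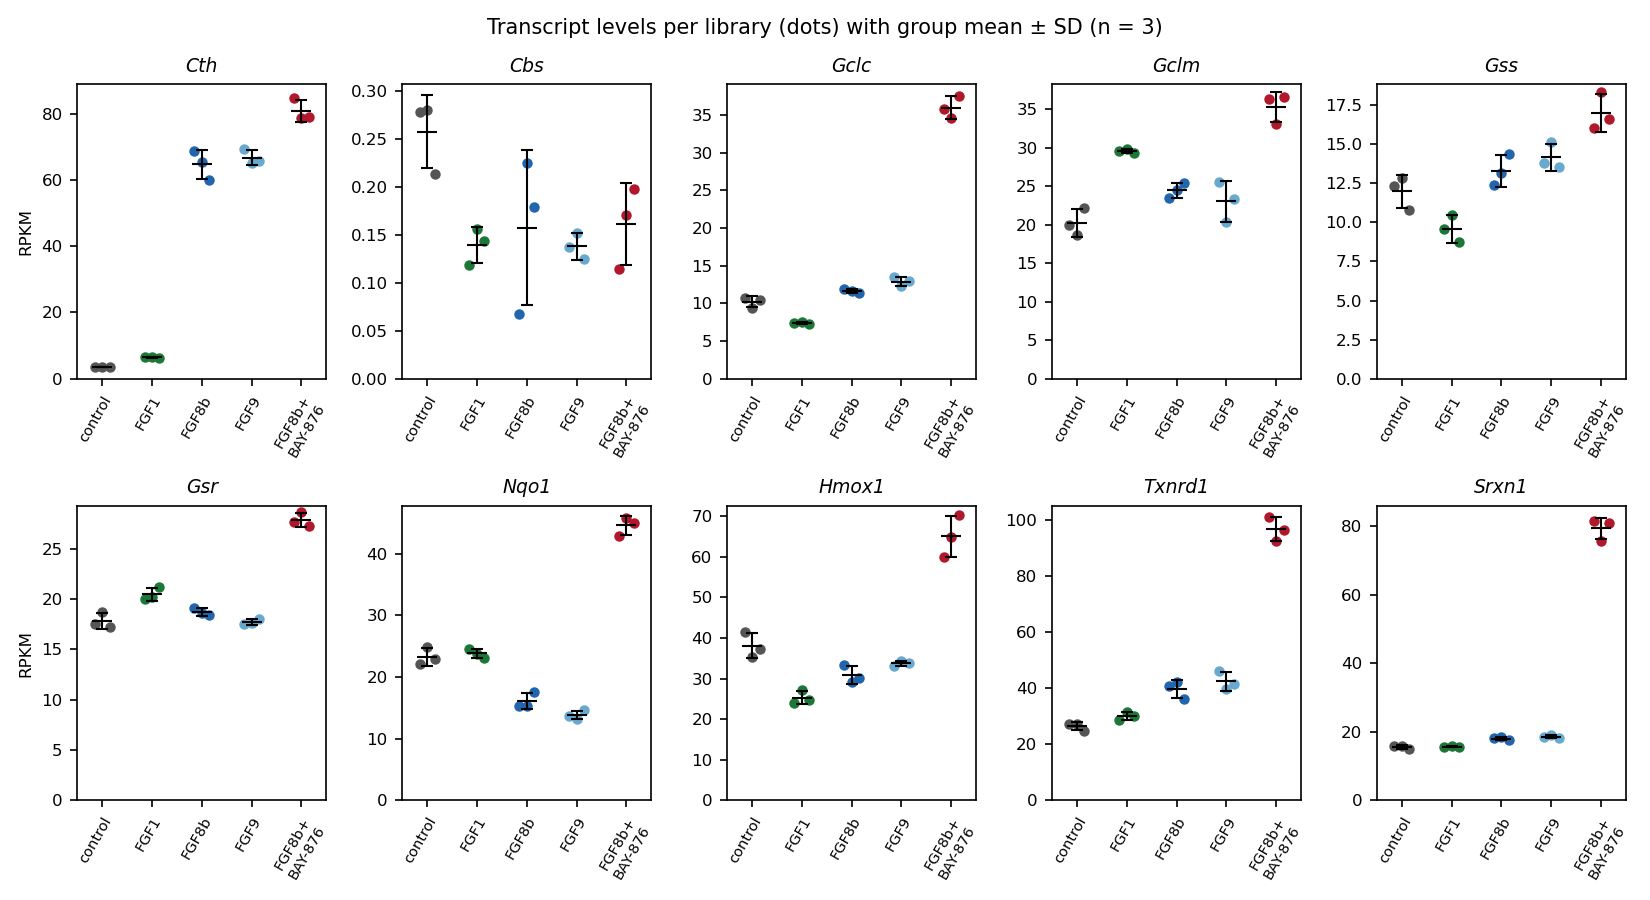
Level in RPKM (vertical axis, from 0, a separate scale for each gene) of the 10 genes in the 5 groups. Dots are the 3 libraries of a group, and the bar is the mean ± SD. Cth is high in all 9 libraries with FGF8b or FGF9, and the BAY-876 libraries lie above all others for every gene but Cbs.

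Cth, the enzyme that releases cysteine in the last step of transsulfuration (chr3:157894248-157925077, minus strand, GENCODE M21 on GRCm38), was the gene of the group that FGF8b and FGF9 moved most. Its control libraries were at 3.51, 3.39 and 3.55 RPKM, and the FGF1 libraries at 6.67, 6.45 and 6.18 RPKM. The FGF8b libraries were at 68.8, 65.3 and 59.98 RPKM, those with FGF9 at 69.5, 65.0 and 65.7 RPKM, and those with FGF8b plus BAY-876 at 84.7, 78.6 and 79.0 RPKM. Thus FGF1 sat above control without overlap, FGF8b and FGF9 overlapped far above both, and BAY-876 lay above FGF8b. Cth rose 18.6-fold with FGF8b (mean 64.7 ± 4.45 against 3.48 ± 0.083 RPKM, SD, n = 3), a log2 change of 4.03 ± 0.06 (SE, limma adjusted p = 1.44e-16). With FGF1 the rise was 0.80 ± 0.06 (limma adjusted p = 4.64e-08), and FGF8b exceeded FGF1 by 3.23 ± 0.06 (limma adjusted p = 2.69e-15). FGF9 and FGF8b differed by 0.05 ± 0.06 (limma adjusted p = 0.961), and BAY-876 added 0.32 ± 0.06 to FGF8b (limma adjusted p = 0.000253). The 4 transcript rows of Cth changed by 3.77 to 4.13 with FGF8b. RNA came from whole cultures, so a larger share of cells with a transcript and more of it per cell cannot be told apart.

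Cbs, which catalyses the step before Cth (chr17:31608894-31637238, minus strand), was scarcely expressed in any group. Its level was 0.258 ± 0.0379 RPKM in control, 0.140 ± 0.0192 with FGF1, 0.157 ± 0.0808 with FGF8b, 0.138 ± 0.0139 with FGF9 and 0.161 ± 0.0428 with FGF8b plus BAY-876. These rest on 5 to 23 reads per library. Summed over the 3 libraries, 63 reads in control stood against 29 with FGF1, 36 with FGF8b, 39 with FGF9 and 42 with FGF8b plus BAY-876. The ratio of levels to control was 0.541 with FGF1 (exact 95% interval 0.336 to 0.853), 0.625 with FGF8b (0.403 to 0.956) and 0.542 with FGF9 (0.354 to 0.821), where the intervals cover counting error only. FGF8b plus BAY-876 stood at 1.02 times FGF8b (0.636 to 1.63). In the FGF8b and FGF9 cultures Cth and Cbs, neighbours in the same pathway, were thus at opposite ends of the levels of these 10 genes.

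The genes of glutathione synthesis differed in their response to the FGFs and rose with BAY-876. Gclc, the catalytic subunit of glutamate-cysteine ligase and the rate-limiting enzyme of the pathway (chr9:77754535-77794485, plus strand), was at 10.7, 9.38 and 10.5 RPKM in control, 7.39, 7.54 and 7.26 with FGF1, and 11.96, 11.7 and 11.3 with FGF8b. With FGF9 it was at 13.5, 12.2 and 12.9 RPKM and with FGF8b plus BAY-876 at 35.9, 34.6 and 37.5 RPKM, and no neighbours in the order of the groups overlapped. Gclc fell with FGF1 (log2 change -0.44 ± 0.06, limma adjusted p = 5.4e-05), rose with FGF9 (0.32 ± 0.06, limma adjusted p = 0.000299), and rose 3.09-fold when BAY-876 was added to FGF8b (1.58 ± 0.06, limma adjusted p = 1.56e-11). The FGF8b rise of 0.19 ± 0.06 passed the test (limma adjusted p = 0.0171), but this call was lost without control replicate 2 (adjusted p = 0.0967) or FGF8b replicate 1 (adjusted p = 0.0573). Over 27 alternatives its adjusted p ranged from 0.00773 to 0.113, the highest under trimmed-mean scaling.

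Gclm, the modifier subunit that makes the ligase more efficient (chr3:122245557-122270732, plus strand), differed from Gclc in its response to FGF1. It was at 20.0, 18.6 and 22.2 RPKM in control and rose to 29.5, 29.9 and 29.3 RPKM with FGF1 (log2 change 0.54 ± 0.08, limma adjusted p = 6.92e-05). The FGF8b libraries were at 23.5, 24.6 and 25.4 RPKM, the FGF9 libraries at 25.6, 20.3 and 23.3 RPKM, and those with BAY-876 at 36.4, 33.1 and 36.6 RPKM. FGF1 was thus the highest of the FGFs for Gclm and the lowest group of all for Gclc. Gclm rose by 0.27 ± 0.08 with FGF8b (limma adjusted p = 0.00796, and 0.0508 after quantile normalization, within a range of 0.000631 to 0.0508 over the alternatives) and by a further 0.52 ± 0.08 with BAY-876 (limma adjusted p = 4.46e-05). With FGF9 the change was 0.18 ± 0.08 (limma adjusted p = 0.0584). It passed without control replicate 3 (adjusted p = 0.017), without FGF9 replicate 2 (adjusted p = 0.00566) and with the replicate block (adjusted p = 0.0399), within a range of 0.00566 to 0.312. The row used for Gclm is a short transcript of 467 bases, and its 6 rows changed by 0.53 to 0.56 with FGF1.

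The ratio of catalytic to modifier transcript, both per length, was therefore not constant. The Gclc to Gclm ratio of RPKM was 0.504 ± 0.0321 in control, 0.2499 ± 0.0025 with FGF1, 0.477 ± 0.0310 with FGF8b, 0.562 ± 0.0386 with FGF9 and 1.02 ± 0.0298 with FGF8b plus BAY-876 (SD, n = 3). The FGF1 libraries lay below all others and the BAY-876 libraries above all others. With all rows of each gene summed, the ratios were lower but in the same order, from 0.179 with FGF1 to 0.742 with BAY-876. The ratio was calculated after the levels had been seen and was not tested.

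Gss, which adds glycine in the second step (chr2:155563181-155592810, minus strand), ranged from 10.8 to 12.8 RPKM in control, 8.72 to 10.5 with FGF1, 12.4 to 14.4 with FGF8b, 13.5 to 15.1 with FGF9 and 16.0 to 18.3 with FGF8b plus BAY-876. FGF1 was the lowest group and BAY-876 the highest, neither overlapping its neighbour. Gss fell with FGF1 (log2 change -0.31 ± 0.09, limma adjusted p = 0.0116) and rose with BAY-876 over FGF8b (0.34 ± 0.09, limma adjusted p = 0.00319). The FGF1 call was lost without control replicate 2 (adjusted p = 0.0576) or FGF1 replicate 3 (adjusted p = 0.0652), within a range of 0.00497 to 0.0652. Gss rose with FGF9 by 0.23 ± 0.09 (limma adjusted p = 0.0274), a call lost without control replicate 3 (adjusted p = 0.131), without FGF9 replicate 2 (adjusted p = 0.103) and under trimmed-mean scaling or quantile normalization, within a range of 0.00798 to 0.15. With FGF8b the value was 0.14 ± 0.09 (limma adjusted p = 0.158). The 10 transcript rows of Gss changed by -0.0008 to 0.43 with FGF8b, 0.12 to 0.55 with FGF9 and -0.39 to -0.12 with FGF1.

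Gsr, the NADPH-dependent enzyme that returns oxidised glutathione to its reduced form (chr8:33652523-33698163, plus strand), stayed between 17.2 and 19.1 RPKM in the control, FGF8b and FGF9 libraries, where control overlapped with both. It was at 20.0 to 21.2 RPKM with FGF1 and 27.3 to 28.7 RPKM with FGF8b plus BAY-876. Gsr rose with FGF1 by 0.20 ± 0.05 (limma adjusted p = 0.00705) and with BAY-876 over FGF8b by 0.56 ± 0.05 (limma adjusted p = 2.01e-07). The values were 0.07 ± 0.05 with FGF8b (limma adjusted p = 0.237) and -0.0050 ± 0.05 with FGF9 (limma adjusted p = 0.936). The 10 transcript rows of Gsr changed by -0.02 to 0.23 with FGF8b, -0.07 to 0.13 with FGF9 and 0.13 to 0.32 with FGF1. FGF8b was below FGF1 by -0.13 ± 0.05 (limma adjusted p = 0.0445), a call that was lost when any 1 of the FGF1 or FGF8b libraries was left out, and also without control replicate 1, FGF9 replicate 3, or replicate 1 or 3 of FGF8b plus BAY-876 (adjusted p = 0.0502 to 0.163 in these fits, within a range of 0.00865 to 0.163).

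Nqo1 and Hmox1 fell with FGF8b and rose above control when BAY-876 was added. Nqo1, the quinone reductase whose transcript is a common readout of NRF2 (chr8:107388225-107403206, minus strand), was at 22.1, 24.9 and 22.9 RPKM in control and 24.6, 23.8 and 23.1 with FGF1. It was at 15.2, 15.4 and 17.6 RPKM with FGF8b, 13.6, 13.2 and 14.6 with FGF9, and 42.9, 45.8 and 45.0 with FGF8b plus BAY-876. Control and FGF1 overlapped, FGF8b and FGF9 lay below them, and the BAY-876 libraries lay above all others. The log2 change was -0.53 ± 0.07 with FGF8b (limma adjusted p = 4.26e-06), -0.73 ± 0.07 with FGF9 (limma adjusted p = 8.98e-08) and 1.45 ± 0.07 for BAY-876 over FGF8b (limma adjusted p = 7.72e-11), a 2.78-fold rise of the mean. Against control, FGF8b plus BAY-876 was higher by 0.92 ± 0.07 (limma adjusted p = 3.96e-09). With FGF1 the value was 0.03 ± 0.07 (limma adjusted p = 0.756).

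Hmox1, the stress-induced oxygenase that opens heme into biliverdin, iron and carbon monoxide (chr8:75093621-75100589, plus strand), was at 41.4, 35.4 and 37.3 RPKM in control, 24.1, 27.1 and 24.7 with FGF1 and 33.3, 29.2 and 30.1 with FGF8b. It was at 33.0, 34.4 and 33.7 RPKM with FGF9 and 60.1, 64.8 and 70.2 with FGF8b plus BAY-876. Control stood above every FGF-only group, FGF1 was the lowest, and FGF8b and FGF9 overlapped. Hmox1 fell with FGF1 (log2 change -0.58 ± 0.07, limma adjusted p = 1.47e-05) and with FGF8b (-0.30 ± 0.07, limma adjusted p = 0.00228), and rose 2.11-fold with BAY-876 over FGF8b (1.06 ± 0.07, limma adjusted p = 8.86e-09). With FGF9 the value was -0.17 ± 0.07 (limma adjusted p = 0.0534). That passed without control replicate 2 (adjusted p = 0.0274), FGF8b replicate 1 (adjusted p = 0.047), and replicate 1 (adjusted p = 0.0439) or 3 (adjusted p = 0.0467) of FGF8b plus BAY-876, and under trimmed-mean scaling and quantile normalization, within a range of 0.00473 to 0.233.

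Txnrd1 and Srxn1 showed small rises with FGF8b and FGF9, and Srxn1 had the largest BAY-876 response of the 9 tested genes. Txnrd1, the cytosolic selenoenzyme that reduces thioredoxin (chr10:82833951-82897712, plus strand), was at 27.1, 27.2 and 24.8 RPKM in control, 28.6, 31.4 and 29.9 with FGF1 and 40.7, 42.0 and 35.9 with FGF8b. It was at 46.1, 39.6 and 41.5 RPKM with FGF9 and 101.0, 92.4 and 96.4 with FGF8b plus BAY-876. Each step upward in this order left the groups apart, except between FGF8b and FGF9. The log2 change was 0.57 ± 0.07 with FGF8b (limma adjusted p = 3.47e-06), 0.67 ± 0.07 with FGF9 (limma adjusted p = 5.45e-07) and 1.28 ± 0.07 for BAY-876 over FGF8b (limma adjusted p = 6.96e-10). With FGF1 the value was 0.18 ± 0.07 (limma adjusted p = 0.0634), which passed without FGF8b replicate 3 (adjusted p = 0.0432) or FGF9 replicate 1 (adjusted p = 0.0434), in a fit of the 2 groups alone and with the rows of the gene summed or averaged, within a range of 0.0342 to 0.206.

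Srxn1, which repairs overoxidised peroxiredoxins (chr2:152105516-152111376, plus strand), was at 15.9, 16.0 and 15.004 RPKM in control, 15.6, 15.9 and 15.6 with FGF1 and 18.1, 18.4 and 17.6 with FGF8b. It was at 18.4, 19.0 and 18.2 RPKM with FGF9 and 81.4, 75.8 and 80.9 with FGF8b plus BAY-876. The libraries without BAY-876 thus lay within a narrow band far below the 3 with it. Srxn1 rose by 0.20 ± 0.05 with FGF8b (limma adjusted p = 0.00224), by 0.24 ± 0.05 with FGF9 (limma adjusted p = 0.000507) and by 2.11 ± 0.05 with BAY-876 over FGF8b (limma adjusted p = 4.78e-14), a 4.41-fold rise of the mean. With FGF1 the value was 0.0058 ± 0.05 (limma adjusted p = 0.945).

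**Figure D2:**
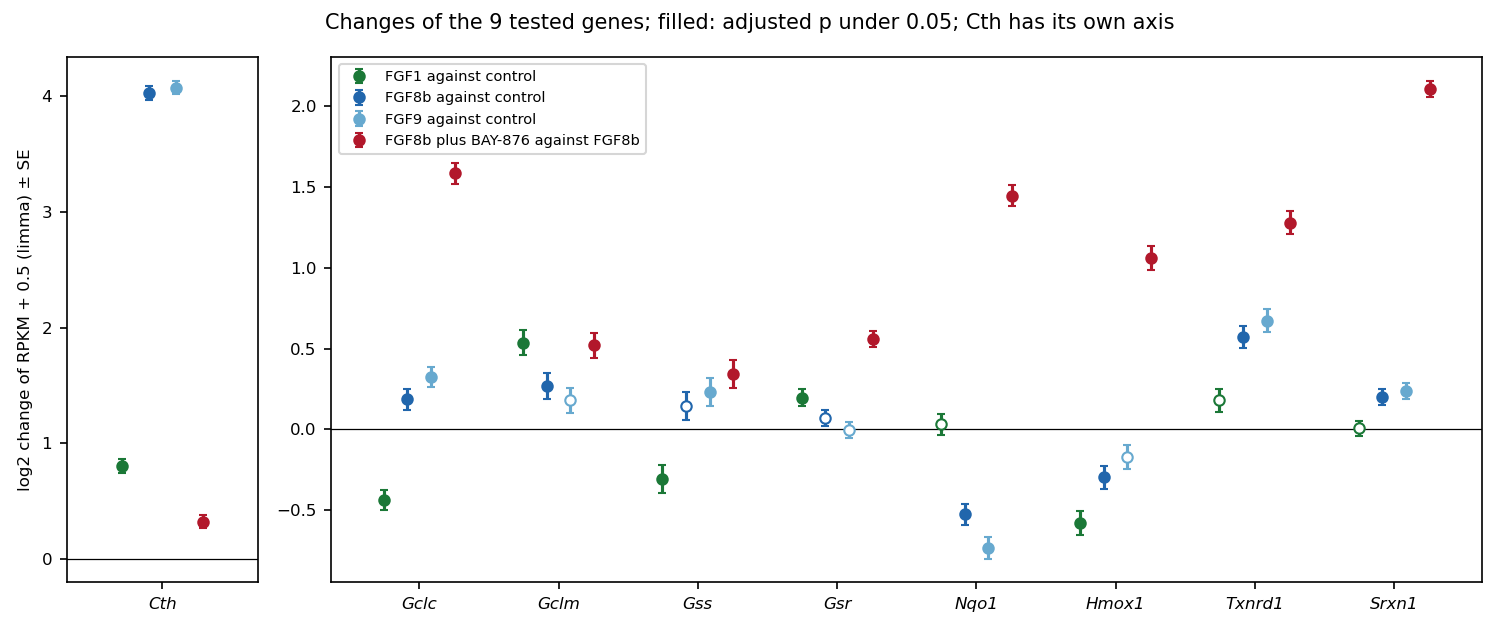
log2 change ± SE (vertical axes, limma on RPKM + 0.5) of the 9 tested genes in 4 comparisons. Filled points passed an adjusted p of 0.05 and open points did not, and Cth has its own axis because its changes with FGF8b and FGF9 (4.03 and 4.08) exceed those of the others. The BAY-876 points are above 0 for all 9 genes, while the FGF points of the genes other than Cth lie between -0.73 and 0.67.

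The comparison of each FGF with control asked how the paracrine ligands act on the untreated cells. With FGF1, 3 of 9 genes rose (Cth, Gclm and Gsr), where 19.3% of all genes tested rose, and 3 fell (Gclc, Gss and Hmox1), where 15.1% of all fell. With FGF8b, 5 rose (Cth, Gclc, Gclm, Txnrd1 and Srxn1) against 37.8% of all genes, and 2 fell (Nqo1 and Hmox1) against 26.6%. With FGF9, 5 rose (Cth, Gclc, Gss, Txnrd1 and Srxn1) against 38.7%, and 1 fell (Nqo1) against 27.0%. Counts this small do not set the 9 genes apart from all genes. The median change of the 9 genes was 0.03 with FGF1, 0.19 with FGF8b and 0.23 with FGF9, beside 0.02, 0.08 and 0.09 for all genes. These 3 comparisons share the control libraries.

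FGF8b set against FGF1 gave 6 higher genes (Cth, Gclc, Gss, Hmox1, Txnrd1 and Srxn1), where 33.3% of all genes were higher, and 3 lower (Gclm, Gsr and Nqo1), where 26.6% were lower. For FGF9 against FGF8b, 0 of the 9 genes were called by limma in either direction, while 0.202% of all genes were higher and 0.0937% lower. At an unadjusted p under 0.05, 1 of the 9 was higher and 1 lower, where 977 of all 13869 genes passed in either direction. Voom on recovered reads called 0 of the 9, and 64 of all genes. This does not show that the 2 ligands act alike on these genes: the SE of each difference was 0.05 to 0.09 on the log2 scale.

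The comparison of FGF8b plus BAY-876 with FGF8b asked what the glucose transporter inhibitor adds. All 9 tested genes rose with it, where 22.5% of all genes rose, and 0 fell, where 34.8% of all fell. At an unadjusted p under 0.05 the counts of the 9 genes were the same, while 8549 of all 13869 genes passed in either direction. Voom also gave the same counts for the 9 genes. Under quantile normalization the split over all genes was 3854 higher and 3954 lower, in place of 3117 and 4824. The median change of the 9 genes was 1.06, beside -0.08 for all genes. In order, the rises were Srxn1 (2.11), Gclc (1.58), Nqo1 (1.45), Txnrd1 (1.28), Hmox1 (1.06), Gsr (0.56), Gclm (0.52), Gss (0.34) and Cth (0.32). For each of these genes the libraries with BAY-876 and with FGF8b alone did not overlap. The share of all genes without such overlap was not counted, so this does not set the 9 genes apart. Against control, FGF8b plus BAY-876 was also higher for all 9 genes, where 36.8% of all were higher, and lower for 0, where 35.9% were lower. With no filter on low levels Cbs entered the fits and was called lower in all 4 comparisons with control. These share the control libraries, and the limma adjusted p was 0.0188 to 0.0484. For Cbs, 1 FGF8b library (0.225 RPKM) lay above the lowest control library (0.214 RPKM). The median of the 9 genes against control was 0.92, beside 0.01 for all genes. Both comparisons use the same BAY-876 libraries, and an effect of BAY-876 without FGF8b cannot be told apart from one that needs FGF8b.

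The genes that set NRF2 activity changed in both directions with BAY-876. Nfe2l2, which encodes NRF2 itself, was at 65.1, 65.7 and 69.5 RPKM with FGF8b and 57.6, 56.1 and 55.8 with BAY-876, and so fell (log2 change -0.24 ± 0.05, limma adjusted p = 0.00125). With FGF8b it had risen from 51.6, 48.9 and 54.9 RPKM in control (0.36 ± 0.05, limma adjusted p = 1.98e-05). Keap1, the NRF2 inhibitor, was at 10.6 ± 0.121 RPKM with FGF8b and 9.55 ± 0.417 with BAY-876 (-0.14 ± 0.10, limma adjusted p = 0.234). Bach1, a repressor of Hmox1 and other antioxidant response genes, rose with BAY-876 from 6.27 ± 0.19 to 9.90 ± 0.48 RPKM (0.62 ± 0.06, limma adjusted p = 9.21e-07). Of the small MAF partners, Mafk rose from 2.06 to 5.44 RPKM (1.21 ± 0.11, limma adjusted p = 1.62e-07) and Mafg from 14.8 to 27.2 (0.85 ± 0.07, limma adjusted p = 4.33e-08). Sqstm1, whose protein p62 sequesters KEAP1 and which is itself an NRF2 target, rose from 248.8 to 577.4 RPKM (1.21 ± 0.06, limma adjusted p = 1.71e-10). Of 12 tested regulators of NRF2, 6 rose and 3 fell with BAY-876 (median 0.16), where 22.5% of all genes rose and 34.8% fell (median -0.08). NRF2 protein was not measured.

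Atf4 rose with FGF1 and FGF8b and did not pass the test for BAY-876 over FGF8b. Its libraries were at 81.6, 78.6 and 78.9 RPKM in control, 114.5, 108.8 and 115.0 with FGF1 and 312.0, 307.5 and 319.7 with FGF8b. With FGF9 they were at 311.6, 316.9 and 318.4 RPKM, and with FGF8b plus BAY-876 at 312.6, 296.4 and 308.6, so the last 3 groups overlapped. Atf4 rose by 0.50 ± 0.04 with FGF1 (limma adjusted p = 2.36e-07) and by 1.97 ± 0.04 with FGF8b (limma adjusted p = 5.75e-15), and its value for BAY-876 over FGF8b was -0.03 ± 0.04 (limma adjusted p = 0.522). Slc7a11, the cystine transporter, rose with FGF1 from 14.9 to 20.3 RPKM (0.43 ± 0.06, limma adjusted p = 1.63e-05), with FGF8b to 18.6 (0.31 ± 0.06, limma adjusted p = 0.000124) and with BAY-876 to 30.4 (0.69 ± 0.06 over FGF8b, limma adjusted p = 4.4e-08). With FGF8b the log2 change of Slc7a11 was thus 0.31, beside 4.03 for Cth.

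**Figure D3:**
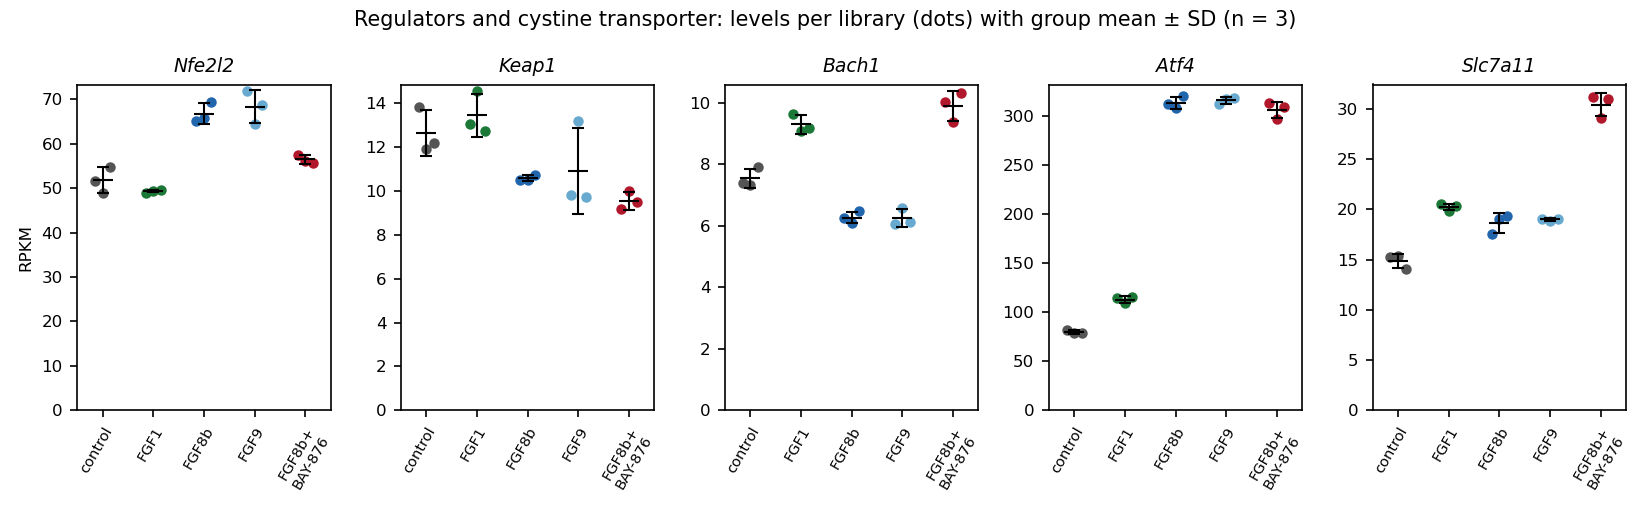
Level in RPKM (vertical axis, from 0, a separate scale for each gene) of 4 transcription regulators and the cystine transporter Slc7a11. Dots are the 3 libraries of a group, and the bar is the mean ± SD. The Atf4 libraries with FGF8b, FGF9 and BAY-876 overlap, whereas Bach1 and Slc7a11 are higher with BAY-876 than with FGF8b.

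Over all genes, 22.5% rose and 34.8% fell with BAY-876 over FGF8b (median -0.08), 37.8% rose and 26.6% fell with FGF8b (median 0.08), and 19.3% rose and 15.1% fell with FGF1 (median 0.02). Beside these shares, of 28 tested NRF2 targets other than the 10 genes, 23 rose and 4 fell when BAY-876 was added to FGF8b (median 0.54), and the count was 23 and 2 under trimmed-mean scaling and 22 and 3 under quantile normalization. They include Pgd, the NADPH-producing phosphogluconate dehydrogenase, from 25.8 to 67.9 RPKM (log2 change 1.38 ± 0.07), Gsta4, which conjugates glutathione to lipid aldehydes, from 9.12 to 31.1 (1.71 ± 0.10), and the exporter Abcc4 from 2.29 to 8.56 (1.70 ± 0.10), each with a limma adjusted p of at most 1.96e-09. The biliverdin reductases, which act on the product of HMOX1, fell: Blvra went from 31.3 to 23.5 RPKM (-0.41 ± 0.07, limma adjusted p = 0.000195) and Blvrb from 47.5 to 37.5 (-0.36 ± 0.11, limma adjusted p = 0.0148). With FGF8b alone, 5 of the same 28 targets rose and 13 fell (median -0.13), and with FGF1 4 rose and 14 fell (median -0.19). Among them Ephx1, an epoxide hydrolase, fell with FGF8b from 40.3 to 6.33 RPKM (-2.58 ± 0.07, limma adjusted p = 4.77e-14) and Gstm1 from 155.9 to 22.9 (-2.75 ± 0.07, limma adjusted p = 3.67e-14). Of the 32 genes on the list, 15 stand on another of the lists too. Glutathione transferases and ferritins have near-identical relatives, so their values are uncertain.

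Of 32 tested genes that use or break down glutathione, 10 rose and 15 fell with FGF8b (median -0.18), where 37.8% of all genes rose and 26.6% fell. With BAY-876 over FGF8b 13 rose and 12 fell (median 0.14), where 22.5% of all rose and 34.8% fell. Chac1, which degrades glutathione and is a target of ATF4, rose with FGF8b from 1.01 to 23.1 RPKM (3.97 ± 0.13, limma adjusted p = 3.7e-13). Gsto1, an omega-class transferase, rose from 33.4 to 173.5 RPKM (2.36 ± 0.06, limma adjusted p = 1.77e-14). Gpx3, the secreted glutathione peroxidase, fell from 61.3 to 5.69 RPKM (-3.34 ± 0.11, limma adjusted p = 3.7e-13).

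Of 8 tested methionine cycle genes, whose pathway lies upstream of CTH, 5 rose and 1 fell with FGF8b (median 0.43), where 37.8% of all genes rose and 26.6% fell (median 0.08). Mat2a, which makes S-adenosylmethionine, rose from 51.4 to 86.4 RPKM (0.75 ± 0.06, limma adjusted p = 3.13e-08). The gene that fell was Mat2b, from 41.7 to 26.6 RPKM (-0.64 ± 0.06, limma adjusted p = 6.29e-08). Of 14 tested genes of cystine uptake and cysteine use, 6 rose and 6 fell with FGF8b (median -0.05), beside the same shares of all genes. With BAY-876 over FGF8b 5 of these 14 rose and 5 fell (median 0.16), where 22.5% of all genes rose and 34.8% fell. Among them Slc3a2, the heavy chain that xCT needs, rose with FGF8b from 45.2 to 188.0 RPKM (2.04 ± 0.05, limma adjusted p = 1.86e-14). Cdo1, the dioxygenase that oxidises cysteine toward taurine, fell from 5.98 to 2.19 RPKM (-1.27 ± 0.12, limma adjusted p = 1.66e-07), and fell again with BAY-876 to 0.802 RPKM (-1.05 ± 0.12, limma adjusted p = 2.45e-06). Of 15 tested ATF4 and stress factors, 11 rose and 3 fell with FGF8b (median 1.49), where 37.8% of all genes rose and 26.6% fell. Trib3, a pseudokinase, rose from 2.995 to 56.5 RPKM (4.03 ± 0.09, limma adjusted p = 1.23e-14). With BAY-876 over FGF8b 2 rose and 7 fell (median -0.20), where 22.5% of all genes rose and 34.8% fell.

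In the thioredoxin and peroxiredoxin system 8 of 22 genes rose and 10 fell with BAY-876 over FGF8b (median -0.03), where 22.5% of all genes rose and 34.8% fell (median -0.08). Prdx6, a peroxiredoxin that draws on glutathione, rose from 52.9 to 88.1 RPKM (0.73 ± 0.05, limma adjusted p = 7.37e-09) and catalase (Cat) from 18.7 to 30.9 (0.71 ± 0.06, limma adjusted p = 8.99e-08). Txnip, which binds and inhibits thioredoxin and is a known readout of glucose sensing, fell from 100.1 to 0.722 RPKM (-6.37 ± 0.07, limma adjusted p = 4.7e-18). Among 19 heme and iron genes, beside Hmox1, 8 rose and 6 fell with BAY-876 (median -0.02), beside the same shares of all genes. The transferrin receptor Tfrc rose from 13.0 to 73.4 RPKM (2.45 ± 0.11, limma adjusted p = 4.49e-11) and the ferritin light chain Ftl1 from 1238 to 2692 RPKM (1.12 ± 0.11, limma adjusted p = 6.78e-07). Hmox2, the constitutive heme oxygenase, fell from 45.6 to 28.5 RPKM (-0.67 ± 0.06, limma adjusted p = 7.32e-08) while Hmox1 rose.

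**Figure D4:**
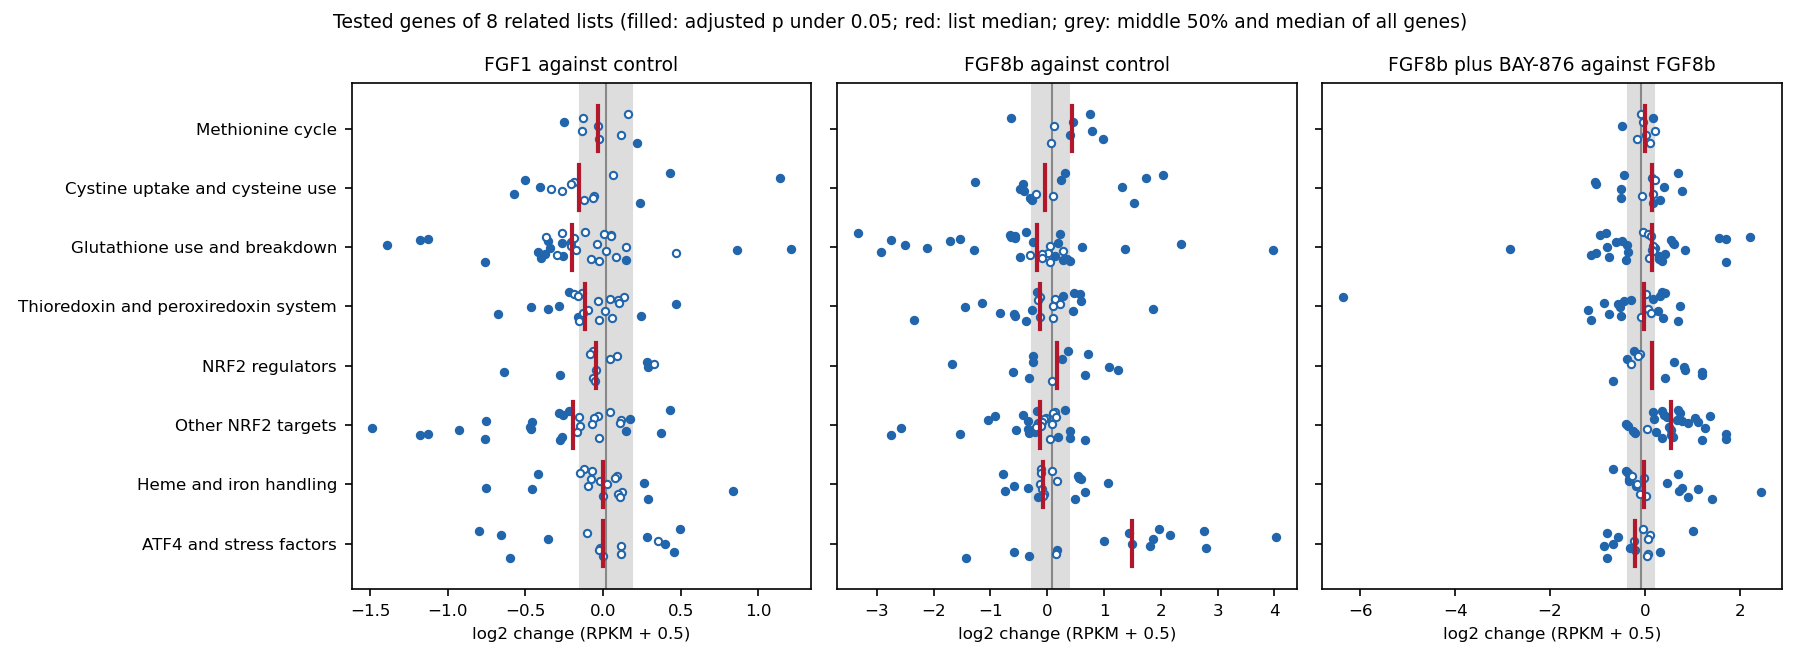
log2 change (horizontal axes, RPKM + 0.5) of the tested genes of 8 related lists in 3 comparisons. Filled points passed an adjusted p of 0.05, the red line is the list's median, and the grey line and band are the median and the middle 50% of all 13869 genes. With BAY-876 the other NRF2 targets centre on 0.54, and with FGF8b the ATF4 and stress factors centre on 1.49.

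Patterns were compared over the 4 differences from control (FGF1, FGF8b, FGF9 and FGF8b plus BAY-876) by the root mean square difference in log2 units among 11873 genes. The gene most like Cth was Chac1 (0.122), followed by Trib3 (0.516), Hmga2 (0.537), Prkg2 (0.612) and Slc7a3 (0.660). The genes most like Hmox1 were Gramd1b (0.051), Tpp1 (0.075), Fnip2 (0.080), Neu1 (0.088) and Ssfa2 (0.089), and those most like Nqo1 were Gsta2 (0.145), Hspb8 (0.159), Sc5d (0.184), Abtb2 (0.213) and Slc39a8 (0.214). Among the 9 tested genes themselves, Gclm and Gsr were closest (0.231), Gss and Gsr next (0.290), then Gclc and Srxn1 (0.351). The gene nearest to Cth among them was Txnrd1, at 2.746. Gsta2 changed by -0.5634 with FGF8b and by the same value with FGF9, as a gene at 0 RPKM in both groups would. Its rank beside Nqo1 may therefore rest on the 0.5 RPKM added before the log. These are descriptions of group means that share 1 control, with no test.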

How the data were processed

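RNA sequencing libraries were made from total RNA with a TruSeq RNA kit, per the labels' protocols, and the submitters' processing notes name CASAVA and bcl2fastq. Which aligner, build and annotation were used is not given in the sources used here. The deposited table holds 168326 transcript rows and 15 value columns with decimal commas, all matched to samples by name. Its unit is not named. It was taken as RPKM made by the authors, because, once multiplied by transcript length, 94.0% to 94.7% of the low values in a library were whole reads (tolerance 0.05, 46002 Ensembl rows). Those steps gave library sizes and reads for all 13869 tested genes (tolerance 0.02 read), and the inferred length equalled the annotation for 90.9% of 3476 Ensembl rows. Rows without a symbol (23172) were left out, and how reads shared by overlapping transcripts were assigned is not given in the sources used here.

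Levels were log2(RPKM + 0.5), which understates the changes of low genes, for genes that reached 0.5 RPKM in at least 3 libraries. They were fitted over all 15 libraries in 5 groups with limma 3.58.1 in R 4.3.3 (trend, empirical Bayes), with Benjamini-Hochberg adjustment over 13869 genes and a threshold of 0.05. The fit was tested on simulated data. Folds in the text are ratios of mean RPKM. The alternatives were other pseudocounts (0.1 and 1), filters, scalings and uses of a gene's rows, no trend, voom on recovered reads, 2 groups only, a replicate block, and each library left out.

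The members and lists were chosen with earlier results of these data known. All members are named. Of each list, the genes that could be named were the up to 3 largest rises and 3 largest falls past the threshold, with Nfe2l2, Keap1, Bach1, Atf4 and Slc7a11 always eligible. The comparison of patterns left out predicted gene models and named the 5 nearest genes. Positions are from GENCODE M21 on GRCm38, which may differ from the build of the table. Replicate numbers were not used to pair libraries: deviations from group means correlated above 0.1 in 11 of 30 pairs with the same number (range -0.443 to 0.534). Pairs with different numbers were not compared, so these values do not settle if libraries with the same number belong together.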

Additional observations from a re-analysis of the deposited data

How the results depend on the processing

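In BAY-876 against FGF8b and in FGF8b plus BAY-876 against control, each of the 9 tested genes kept its direction and call under all 27 alternatives, as did Cth in each FGF against control. The rise of Cth with FGF8b ranged from 3.87 to 4.23. The genes lower with FGF9 numbered 2 instead of 1 with no level filter, trimmed-mean scaling, quantile normalization or the sum of a gene's rows, and 1 to 2 when a library was left out. With no level filter Cbs entered the fit and was lower than control in every comparison with it (limma adjusted p = 0.0384 with FGF1, 0.0411 with FGF8b, 0.0188 with FGF9 and 0.0484 with FGF8b plus BAY-876). The lower genes then numbered 4 instead of 3 with FGF1, 3 instead of 2 with FGF8b and 1 instead of 0 with FGF8b plus BAY-876. The genes called over the whole table for FGF9 against FGF8b, 41 in all, numbered 27 with a pseudocount of 0.1, 64 with voom, 0 in a fit of the 2 groups only (977 had an unadjusted p under 0.05 with all groups), and 6 to 44 when a library was left out, fewest without FGF9 replicate 3. Signs turned only for changes that did not pass. These were Nqo1 with FGF1 (-0.0033 under trimmed-mean scaling, -0.0051 to 0.0806 with a library left out), Srxn1 with FGF1 (-0.0291 under trimmed-mean scaling, -0.0180 under quantile normalization, -0.0220 to 0.0214 with a library left out), Gsr with FGF8b (-0.0033 and -0.0072 under these scalings), Gsr with FGF9 (0.0087 with rows summed, 0.0155 with rows averaged, 0.0236 with voom, -0.0300 to 0.0309 with a library left out) and Cth for FGF9 against FGF8b (-0.0071 to 0.0913 with a library left out). The cause was not tested. The replicate block, whose numbers are not known to pair the libraries, moved the call of Gclm with FGF9 (0.18, adjusted p = 0.0399, limma). It also moved that of Gsr for FGF8b against FGF1 (-0.13, adjusted p = 0.0513, limma), and changed no other call among the 9 genes. Depth limits Cbs, with 5 to 23 reads per library.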
